A study of Oryza sativa with 6 samples.

Results

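Class III peroxidases are the secreted haem peroxidases of plants, and 88 of the 21495 rice probes on the array carried a description with the word peroxidase that did not also name an ascorbate, glutathione, thioredoxin, thiol or phospholipid peroxidase. A further 16 probes were set aside by those words. Of the 88 probes, 85 were measured well enough to be tested, that is, in at least 1 of the 4 combinations of line and condition their signal was well above background on each of the 3 arrays. The probes left out were AK067000 (a bacterial-induced peroxidase of cotton), AK071385 (the Arabidopsis gene At5g47000) and AK106171 (the Arabidopsis gene At5g42180). They are counted in none of the results that follow.

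Class III peroxidases use hydrogen peroxide to oxidise phenolic compounds in the cell wall and the vacuole. In roots they are known for cross-linking lignin, suberin and wall proteins, which stiffens walls, and they can also produce reactive oxygen species that loosen walls in growing cells. Plant genomes hold large families of them, and single members respond to pathogens, wounding and nutrient supply.

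Transcripts of whole roots from a pair of rice lines were measured on 6 arrays of 2 colours. The japonica cultivar Nipponbare was set against 6-4, a near-isogenic line (NIL) with inserts from the indica cultivar Kasalath. Plants grew in 12 L pots of Andosol, a volcanic soil, which was rich in phosphorus (P) in the control condition and lacked it in the P-deficient condition, and RNA came from 1.6 g of root. Each array held both lines from 1 condition, with 3 biological replicates per condition. RNA of 6-4 was labelled with Cy5 on 3 arrays (control 2, P-deficient 1 and P-deficient 3) and with Cy3 on the others. The series compared the lines under each condition, and a line ratio is therefore measured within an array, whereas a response to P is measured between arrays. In whole roots, fewer cells of a type and less RNA per cell cannot be told apart, and in 6-4 a changed signal can come from the level of a transcript or from the binding of its Kasalath form to the probe.

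The names of the probes are those of the array design, and most of them are the names of the most similar protein of another species. The 88 probes shared 41 descriptions, 17 of which were carried by more than 1 probe and covered 64 probes. Only 15 probes were named after rice, under 6 descriptions. A name such as prx12 of spinach therefore marks a likeness in sequence and not the identity of the rice gene, and several probes can belong to 1 gene. AK110148 entered by its words alone, since it is described as a peroxidase-producing glyoxal oxidase of a fungus, and it passed no test. Every channel was well above background for 76 of the 85 probes. Root markers were well above background in every channel for 8 of 9 probes (RCc2 and RCc3, proteins of root tissue), and leaf markers (chlorophyll a/b-binding protein and the small subunit of Rubisco) for 11 of 18.

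Few peroxidases passed the test for a response to P deficiency. Averaged over both lines, 1 of 85 probes rose and 1 fell at an adjusted p under 0.05 (limma, Benjamini-Hochberg over all probes), where 1.04% of all 20531 probes rose and 0.468% fell. The family's shares, 1.18% in each direction, are counts of 1 probe. At an unadjusted p under 0.05 there were 5 higher and 14 lower probes. No share of all probes is given for unadjusted p, here or below. Such counts are therefore not read as an excess or a skew of the family. The plot of levels by line and condition shows both called probes and 4 others discussed with them.

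The peroxidase that rose was AK073202, described as rice POX22.3, a peroxidase known in rice leaves for its induction by the bacterial blight pathogen Xanthomonas oryzae. Its log2 intensity, averaged over the 2 channels of an array, was 9.48, 9.18 and 9.80 on the control arrays and 11.00, 11.12 and 10.84 on the P-deficient arrays. All 3 P-deficient arrays stood more than 1 log2 unit above the highest control array. The difference was 1.50 (SE 0.18, limma adjusted p = 0.00562), or 2.83-fold. By line it was 1.42 in Nipponbare (SE 0.18, limma adjusted p = 0.00385) and 1.58 in 6-4 (SE 0.18, limma adjusted p = 0.000988). The difference between the lines' responses was 0.15 (SE 0.11, limma adjusted p = 0.374). The call in 6-4 held without any single array, whereas in Nipponbare it was lost (limma adjusted p = 0.0548 to 0.0776) without replicate 1 or 2 of either condition.

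The peroxidase that fell was AK108824, 1 of 8 probes described only as a rice mRNA for peroxidase. Its log2 intensity was 11.71, 11.66 and 11.16 on the control arrays and 9.62, 9.83 and 9.66 on the P-deficient arrays, again without overlap. It fell by 1.80 on the log2 scale (SE 0.17, limma adjusted p = 0.00237), or 3.49-fold. In 6-4 it fell by 1.96 (SE 0.36, limma adjusted p = 0.0191), and in Nipponbare the value was -1.65 (SE 0.36, limma adjusted p = 0.0639). The responses of the lines differed by -0.31 (SE 0.30, limma adjusted p = 0.53), so they were not shown to differ. In 6-4, control replicate 3 was lower (10.71) than control replicates 1 and 2 (11.81 and 11.95). The call in 6-4 held without that array (limma adjusted p = 0.000369) and was lost without any of the other 5 (0.0848 to 0.225). Both this fall and the rise of AK073202 passed under 12 of 13 alternatives, and neither passed on the arrays of replicates 1 and 3 alone (limma adjusted p = 0.0903 and 0.126), where the differences were -1.82 and 1.30.

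**Figure D1:**
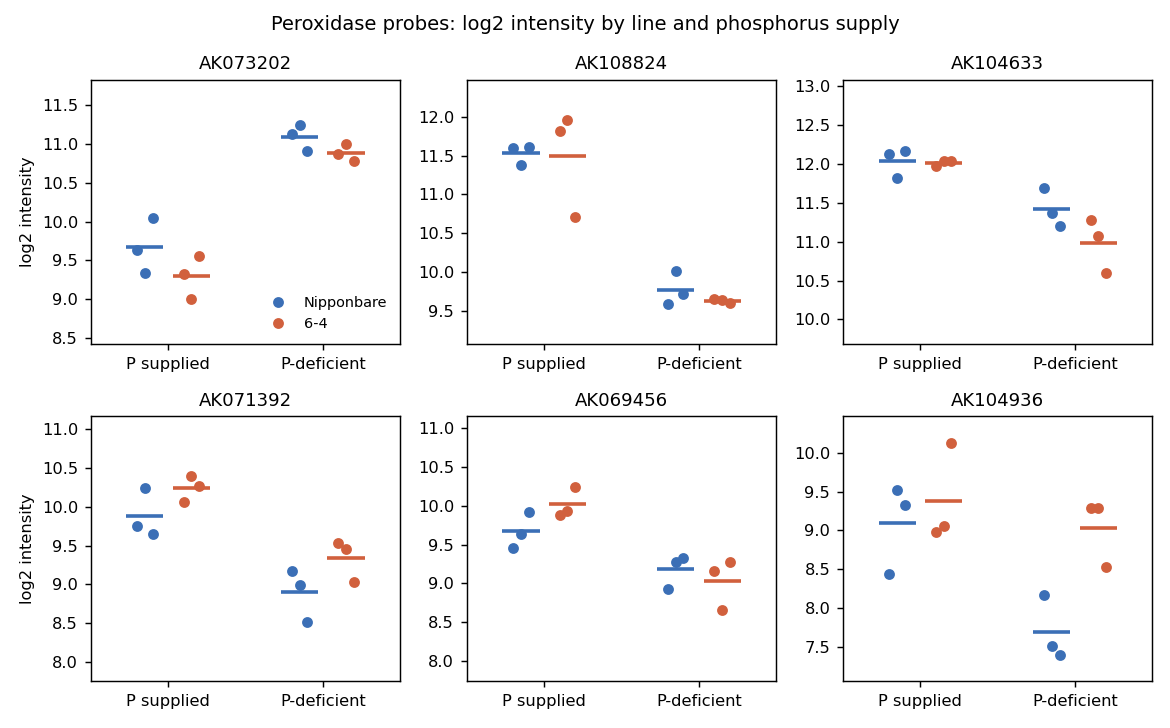
Log2 intensity (vertical axis) of 6 peroxidase probes in Nipponbare (blue) and 6-4 (orange) roots with P supplied and without it. Each point is 1 channel of 1 array, horizontal bars are means of 3, and all panels span the same number of log2 units. AK073202 lies higher without P and AK108824 lower in both lines, while AK104936 differs between conditions mainly in Nipponbare.

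More peroxidases lay below their control level than above it, but single probes beyond those 2 were not called in this fit. The median response of the 85 probes was -0.09 on the log2 scale, against -0.01 over all probes, with 56 probes below 0 and 29 above. The median depended on 1 array. The family's median level was 9.18, 9.28 and 9.31 on the control arrays and 9.16, 9.05 and 8.73 on the P-deficient arrays, and without P-deficient replicate 3 the median response was 0.02. On the arrays read with software version 7.1, which are replicates 1 and 2, it was -0.005. Of the 83 probes with values on all arrays, 11 had every P-deficient array below every control array and 5 had every one above. Over all probes these shares were 8.99% and 7.63%, against 13.3% and 6.02% in the family.

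Replicate numbers are shared by the conditions, and same-numbered arrays deviated together in level. Replicate 3 is also the replicate read with software version 8.1, so its number and the software version cannot be told apart. With the replicate number as a block, the count of called peroxidases moved from 2 to 7, of which 3 were higher and 4 lower. The share of all probes called rose too, to 2.63% higher and 1.61% lower, against 3.53% and 4.71% of the 85 peroxidases. The 5 added probes were 3 that were lower and 2 that were higher without P. AK104633, described as the peroxidase pod of sweet potato, was at 12.05, 11.93 and 12.10 on the control arrays and at 11.48, 11.22 and 10.90 on the P-deficient arrays. Its difference was -0.83 (limma adjusted p = 0.0572, and 0.0187 with the block). AK071392, named after a white clover peroxidase, was at 9.90, 10.32 and 9.96 under control and at 9.36, 9.23 and 8.78 without P. The difference there was -0.94 (limma adjusted p = 0.0543, and 0.0114 with the block). For AK069456, named after the tobacco peroxidase clone tpoxC1, it was -0.74 (limma adjusted p = 0.0733, and 0.0102 with the block). The higher probes were AK072862, another of the 8 probes with the same description as AK108824, at 0.55 (limma adjusted p = 0.0944, and 0.0307 with the block), and AK109381, named after At2g34060 of Arabidopsis, at 0.56 (limma adjusted p = 0.115, and 0.0308 with the block). The conditions were separate, with no overlap between arrays, in each of these 5 probes. With the software version as a term in place of the block, the same 7 peroxidases passed.

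Within each line the counts were also small. In Nipponbare 1 of 83 peroxidases rose and 1 fell, where 0.603% of all probes rose and 0.264% fell. In 6-4 1 rose and 2 fell, where 1.08% of all probes rose and 0.299% fell. With the replicate block 6 peroxidases were higher and 10 lower in Nipponbare, where 6.51% and 5.63% of all probes were. In 6-4 5 were higher and 10 lower with the block, where 7.39% and 7.25% of all probes were. AK104633 fell by 1.05 in 6-4 (SE 0.21, limma adjusted p = 0.0305) and was at -0.61 in Nipponbare (SE 0.21, limma adjusted p = 0.20). The test of that difference gave -0.44 (SE 0.15, limma adjusted p = 0.0866), so it did not pass. The call in 6-4 held without P-deficient replicate 2 (limma adjusted p = 0.0487) and was lost without any other single array (0.0896 to 0.306). Without P this probe was lower in 6-4 than in Nipponbare, at -0.46 (SE 0.10, limma adjusted p = 0.0454). This call was lost in 9 of 12 alternatives (-0.69 to -0.36), among them the fits without control replicate 2 (-0.41) and without each P-deficient replicate (-0.45, -0.69 and -0.36).

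Values of probes with the same description could lie on both sides of 0. The 8 probes of the rice description of AK108824 ranged from -1.80 to 0.55 in their response to P, with 4 above 0 and 4 below. The 11 probes named after pox2 of maize, the most common description, ranged from -0.56 to 0.21. The 6 measured probes of the bacterial-induced peroxidase of cotton ranged from -0.70 to 0.30, and the 5 probes of the maize anionic peroxidase from -0.49 to 0.45. The 3 probes of POX8.1, a rice peroxidase also known from the response to bacterial blight, lay between -0.09 and 0.04, while POX22.3 rose. A pair of probes named after PNC1, the cationic peroxidase of peanut, stood at 0.68 (AK060984) and -0.41 (AK108385). AK060984 was at 9.74, 9.79 and 9.84 under control and at 10.88, 10.40 and 10.13 without P, with no overlap (limma adjusted p = 0.177). AK108385 did not overlap either, on the other side, between 7.87 and 8.17 under control and between 7.20 and 7.85 without P (limma adjusted p = 0.488).

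**Figure D2:**
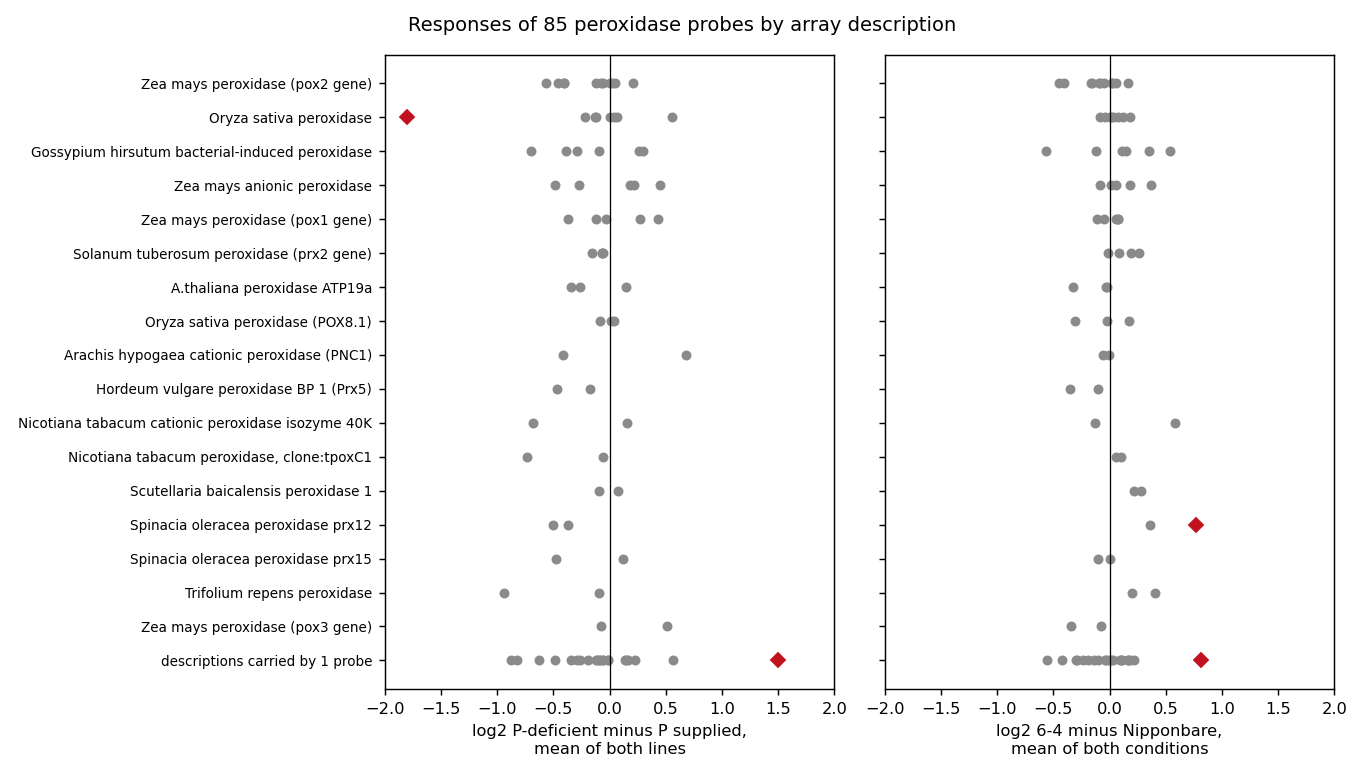
Each point is 1 of the 85 peroxidase probes, in rows by the description the array gives it; the last row holds descriptions carried by 1 probe. The left panel shows the log2 response to P deficiency averaged over both lines and the right panel the log2 difference of 6-4 from Nipponbare averaged over both conditions, with red diamonds for an adjusted p under 0.05. Probes of the commonest descriptions, pox2 of maize and the rice mRNA for peroxidase, lie on both sides of 0 in both panels, and 2 probes pass in each.

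Between the lines, averaged over both conditions, 2 of 85 peroxidases were higher in 6-4 and 0 were lower (limma, adjusted p under 0.05), where 0.263% of all 20528 probes were higher and 0.663% lower. At an unadjusted p under 0.05 the family had 16 higher and 10 lower probes, again with no share of all probes to set beside them. The family's median line effect was 0.008, against 0.003 over all probes. Mean effects that did not pass ran down to -0.57 (AK072761) and included 0.58 (AK101508), 0.53 (AK073833) and -0.42 (AK060007). Without the dye term, and in the authors' deposited log ratios, 0 peroxidases passed.

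AK106200, named after the spinach peroxidase prx12, was higher in 6-4 in both conditions. Its log2 ratio of 6-4 over Nipponbare was 0.56, 0.74 and 1.23 on the control arrays and 0.72, 0.90 and 0.48 on the P-deficient arrays. All 6 arrays went the same way, in both dye orders, and the conditions overlapped. The mean difference was 0.77 (SE 0.09, limma adjusted p = 0.0248), or 1.71-fold. It was 0.81 under control (SE 0.13, limma adjusted p = 0.0223) and 0.74 without P (SE 0.13, limma adjusted p = 0.0286), and these differed by -0.07 (SE 0.20, limma adjusted p = 0.844). Of the 6 peroxidases called in both conditions, it was the 1 with the same sign in both. The call rests on few arrays, since 4 of the 6 fits that leave out an array gave an adjusted p between 0.121 and 0.139 with values of 0.74 to 0.81; the arrays whose loss ended it were control replicate 2 and each of the 3 P-deficient replicates.

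The other probe named prx12, AK064633, gave a different picture. Its ratios were 0.95, -0.92 and 0.86 under control and 0.17, 1.14 and -0.03 without P. The sign was negative on 2 of the 6 arrays, control replicate 2 and P-deficient replicate 3, both with 6-4 in Cy5. Its mean difference was 0.36 (SE 0.09, limma adjusted p = 0.12), and without P it was 0.67 (SE 0.12, limma adjusted p = 0.0296). That call was lost in 6 of 12 alternatives, over which the value ran from 0.43 without the dye term to 1.02 in the deposited log ratios. Among them were the fits without each P-deficient replicate, with values of 0.55, 0.98 and 0.66 (limma adjusted p = 0.143 to 0.173).

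AK104936, named after the anionic peroxidase Pxp1 of black cottonwood, had the largest mean line effect among the 85 probes. The ratios were 0.53, -0.47 and 0.79 under control and 1.12, 1.78 and 1.13 without P, so every P-deficient array lay above every control array. The mean effect was 0.81 (SE 0.07, limma adjusted p = 0.00824). Without P the probe was 2.81-fold higher in 6-4 (log2 1.49, SE 0.10, limma adjusted p = 0.00457), and under control the value was 0.14 (SE 0.10, limma adjusted p = 0.403). The difference between the conditions was 1.35 (SE 0.15, limma adjusted p = 0.0054). Without control replicate 2, the 1 array with a negative ratio, the difference was 1.11 (limma adjusted p = 0.0787) and the effect without P was 1.45 (limma adjusted p = 0.00747). Without P-deficient replicate 1 or 3 the effect without P was 1.45 each time but did not pass (limma adjusted p = 0.06 and 0.0944).

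Seen by line, the same probe fell in Nipponbare when P was lacking. Its log2 intensity there was 8.44, 9.52 and 9.33 under control and 8.17, 7.51 and 7.40 without P. In 6-4 it was 8.97, 9.05 and 10.13 under control and 9.29, 9.28 and 8.53 without P. The conditions did not overlap in Nipponbare and overlapped in 6-4. The response was -1.55 in Nipponbare (SE 0.29, limma adjusted p = 0.0319, and 0.0168 with the block) and -0.20 in 6-4 (SE 0.29, limma adjusted p = 0.785). Each of the 6 fits that leave out an array gave a response in Nipponbare between -1.82 and -1.32, and in none of them did it pass.

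A pair of probes went the same way on every array without passing the mean test. AK071392, the clover-like probe that was lower without P, had ratios of 0.30, 0.15, 0.61, 0.36, 0.46 and 0.51 on control replicates 1 to 3 and P-deficient replicates 1 to 3 (mean 0.40, SE 0.06, limma adjusted p = 0.0532). AK073202, the POX22.3 probe, had -0.31, -0.34, -0.49, -0.27, -0.23 and -0.13 (mean -0.29, SE 0.05, limma adjusted p = 0.0625). It was lower in 6-4 under control at -0.37 (SE 0.07, limma adjusted p = 0.0287). That call was lost in 8 of 12 alternatives (-0.41 to -0.32). In all, 4 of 83 peroxidases were higher in 6-4 on all 6 arrays and 4 were lower, where 2.53% and 2.87% of all probes were. The others were AK099886 and AK108037, both named after the bacterial-induced peroxidase of cotton, with ratios of 0.03 to 0.25, and on the lower side the pox2-like AK099751 and AK064360 and the rice cationic peroxidase OsCPX1 (AK102307). For AK102307 the ratios ran from -1.50 on P-deficient replicate 2 to -0.02 on control replicate 3, and the mean was -0.56 (SE 0.18, limma adjusted p = 0.207).

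**Figure D3:**
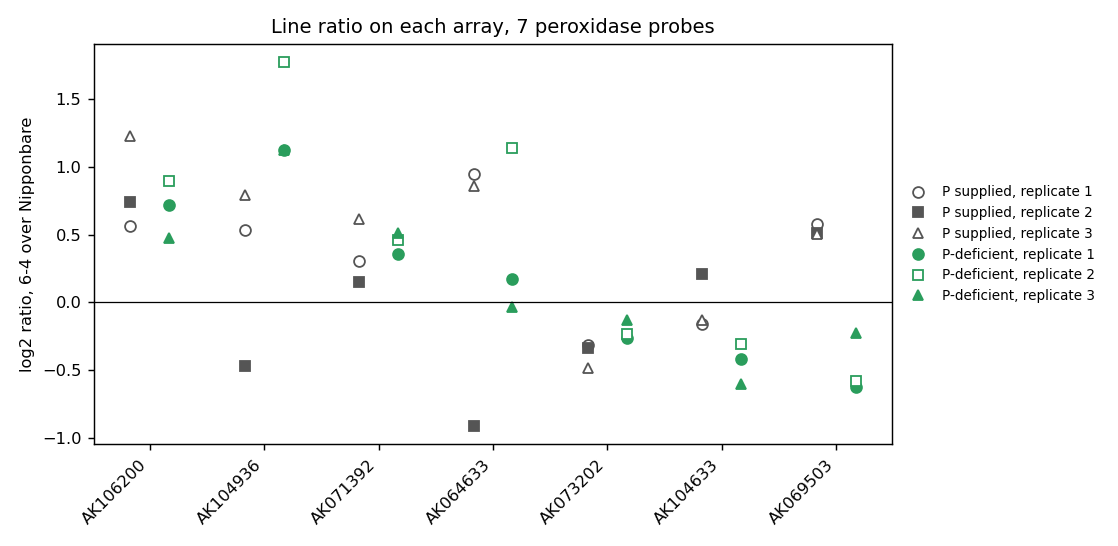
Log2 ratio of 6-4 over Nipponbare (vertical axis) on each of the 6 arrays for 7 peroxidase probes, grey with P supplied and green without it. The marker shape gives the replicate, and filled markers are arrays with 6-4 in Cy5. AK106200 is above 0 on all 6 arrays, and AK069503 is above 0 on the 3 control arrays and below 0 on the 3 P-deficient arrays.

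AK069503, described as the class III peroxidase ATP32 of Arabidopsis, changed sides between the conditions. Its ratios were 0.58, 0.52 and 0.51 under control and -0.62, -0.58 and -0.23 without P. The 3 arrays of each condition stood on their own side of 0, whichever line was in Cy5. The probe was 1.46-fold higher in 6-4 under control (log2 0.54, SE 0.09, limma adjusted p = 0.0233) and 1.40-fold lower without P (log2 -0.49, SE 0.09, limma adjusted p = 0.0324). The difference was -1.03 (SE 0.14, limma adjusted p = 0.00736), and in the deposited log ratios it was -1.05 (limma adjusted p = 0.0284). Without control replicate 2 it was -1.13 and without P-deficient replicate 2 it was -0.94, and neither passed (limma adjusted p = 0.0845 and 0.0644). The effect without P held only without control replicate 1 or 3 among the 6 arrays left out in turn, and the effect under control only without control replicate 3 or P-deficient replicate 2. By line, its response to P was 0.41 in Nipponbare and -0.63 in 6-4, and neither passed (limma adjusted p = 0.386 and 0.184).

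Taken by condition, more probes were called, in the family and on the whole array. Under control 7 peroxidases were higher in 6-4 and 5 lower, where 6.74% and 6.19% of all probes were. Without P 8 were higher and 4 lower, or 9.41% and 4.71% of the family, where 4.32% and 4.62% of all probes were. Among the 8, AK059661, AK071111, AK071908 and AK107203 are also among the probes described next, whose ratios were farthest from 0 on the arrays of replicate 2. The difference between the conditions passed for 14 peroxidases, 7 in each direction, or 8.24% each way, where 9.39% of all probes were higher and 10.3% lower. The shares under control and for the difference are thus near those of the whole array. AK103660 was among the probes called higher in 6-4 under control, and its call was lost in 7 of 12 alternatives (0.38 to 1.47).

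For 12 of the 14 peroxidases the difference lay mainly on the arrays of replicate 2. On both of those arrays the ratio was farther from 0 than on the other 2 arrays of the condition, with opposite signs. AK065305, named after another tobacco peroxidase, is an example, with ratios of 0.06, 0.93 and -0.10 under control and 0.03, -0.71 and 0.14 without P. The soybean-like sEPa1 (AK071908) gave 0.02, -0.69 and -0.10 under control and 0.02, 0.81 and -0.10 without P. In both probes the arrays of replicates 1 and 3 stayed within 0.14 of 0. Those not of this kind were AK104936 and AK069503.

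The same pattern held over the array, where 88.2% of 3982 called probes with values on all arrays had it, and 31.5% of all 20054 probes. The family's figures were 85.7% of the 14 called and 15.7% of 83. The higher shares among called probes are not independent of the test. Ratios of 0 on the other arrays, with equal and opposite values on those of replicate 2, leave no residual under the condition and dye terms. The test therefore favours probes with this pattern. Same-numbered arrays hold the lines in opposite dye orders in every replicate. Within each condition the array of replicate 2 is the only array of its dye order, so a dye effect and that array cannot be told apart there. In Cy3, the negative control spots of these arrays exceeded the local background 5.06 and 4.8 times, against 1.19 to 2.86 times on the other 4 arrays. Without control replicate 2, 0 peroxidases passed for the difference and 0 under control (limma). That fit has fewer arrays and leaves control arrays of 1 dye order only. The share of all probes called also varied widely between fits that leave out an array. The counts of 0 therefore cannot show where these calls come from. The part of the bright Cy3 background in these calls was not tested. Of the 6 peroxidases called in both conditions 5 had opposite signs, as did 866 of 961 over all probes.

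Probes with the same name were also on opposite sides in this comparison. The 2 called probes of the potato-like prx2 stood at -0.81 (AK061511) and 1.01 (AK107203), and those of the maize pox1 at 0.52 (AK058883) and -0.54 (AK108345). Of the 3 called pox2 probes, AK064619 and AK066653 were below 0 (-0.96 and -0.70) and AK109911 above (0.50). AK061040, AK061511, AK064619, AK071111, AK107203 and AK059661 were not well above background in every channel. Control and P-deficient ratios did not overlap in 5 of the 14 (35.7%), the share among all called probes being 35.9%. Of the 83 probes with all values, 7 had every P-deficient ratio above every control ratio and 8 below, where 8.9% and 7.92% of all probes did.

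**Figure D4:**
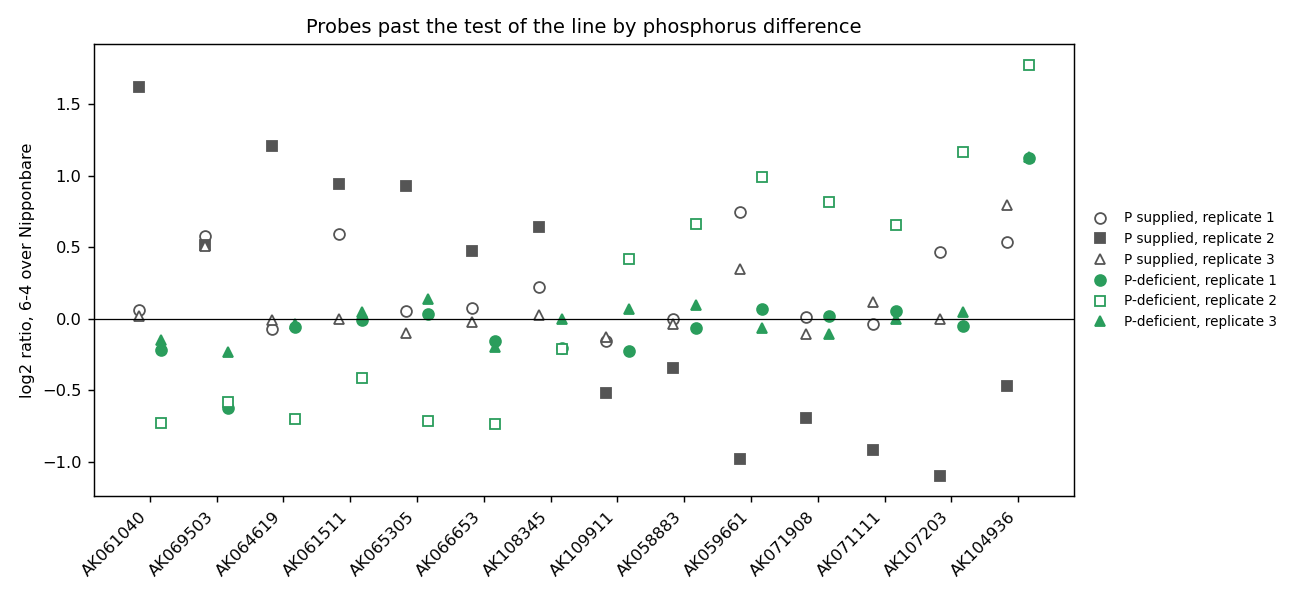
Log2 ratio of 6-4 over Nipponbare (vertical axis) on each array for the 14 peroxidase probes whose line effect differed between conditions, ordered by that difference. Grey is P supplied, green is P-deficient, the shape gives the replicate (squares are replicate 2) and filled markers are arrays with 6-4 in Cy5. In 12 probes the squares are farthest from 0 and on opposite sides, and AK069503 and AK104936 are the exceptions.

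Probes with bright spots differed in how far their replicates lay apart. AK108989, named after the spinach peroxidase prx15, lay between 13.82 and 14.13 on all 6 arrays. The pox3-like AK067416, ran from 14.17 to 14.77 under control. It was saturated in Cy5 on P-deficient replicates 2 and 3, so neither its spread nor its difference without P is given. OsCPX1 (AK102307) ran from 14.16 to 14.43 under control and from 13.43 to 14.80 without P, where P-deficient replicate 3 was the lowest array. The rice peroxidase prxRPN (AK103019) was also lowest on that array, at 8.07, against 9.65 to 10.39 on the other 5. The pineapple-like AK102117 was saturated in Cy5 on control replicate 3 and had outlier spots on control replicate 1 and P-deficient replicate 2, so no difference is given for it.

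Over the 7 comparisons, 21 of the 85 peroxidases passed at least once, 20 of them in a line comparison, 4 in a response to P and 3 in both. That is 24.7% of the family, against 24.1% of all 20531 probes. The other 64 passed in none. Those in both kinds were AK073202, AK104633 and AK104936.

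Genes that supply or remove hydrogen peroxide, the peroxidases' substrate, were read beside them. Of 33 measured probes for supply (superoxide dismutases, germins and oxidases), 3 fell without P and 0 rose in the mean of both lines (limma). Over all probes 0.468% fell and 1.04% rose. GER2 (AK059781), a rice germin-like protein, was at 13.14, 13.06 and 13.14 under control and at 11.61, 11.28 and 11.06 without P (log2 -1.79, SE 0.16, limma adjusted p = 0.0018). Its relative GER1 (AK059338) fell by 1.59 (SE 0.28, limma adjusted p = 0.0312), and a copper amine oxidase (AK067262) by 0.86 (SE 0.13, limma adjusted p = 0.0155). The median of the list was -0.06. Between the lines 0 of the 33 passed in the mean of both conditions (limma). At an unadjusted p under 0.05, 3 were higher and 7 lower, with no share of all probes to set beside them.

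Where 1.04% of all probes rose and 0.468% fell without P, 0 of 21 probes for removal rose and 1 fell. It was a rice catalase (AK099923), an enzyme that breaks hydrogen peroxide down, at 14.80, 14.85 and 15.24 under control and 14.07, 14.25 and 13.94 without P (log2 -0.88, SE 0.16, limma adjusted p = 0.0404). The same catalase was higher in 6-4 on all 6 arrays, by 0.03 to 1.21 (mean 0.56, SE 0.08, limma adjusted p = 0.0418). The list's other catalase probes did not pass for P, at 1.16 (AK066378, limma adjusted p = 0.273) and -0.13 (AK069446, limma adjusted p = 0.92). The list's median response to P was 0.05.

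Of 57 probes for lignin monomers and their polymerisation, 1 rose and 1 fell without P, where 1.04% and 0.468% of all probes did. A probe described as a 4-coumarate-CoA ligase-like protein of Arabidopsis (AK105693) rose by 1.07 (SE 0.20, limma adjusted p = 0.0424). That description marks a likeness in sequence and does not show that the gene acts in lignin synthesis. A laccase (AK109431), of the copper oxidases that polymerise monolignols as peroxidases do, fell by 0.81 (SE 0.14, limma adjusted p = 0.0295). Between the lines another laccase (AK072397) was higher in 6-4 at 0.40 (SE 0.05, limma adjusted p = 0.0248) and a ferulate-5-hydroxylase probe (AK067847), of the route to syringyl lignin, lower at -0.37 (SE 0.06, limma adjusted p = 0.046). The list's medians were -0.03 for P and 0.008 for line.

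Some root markers moved with P as well, beside 0.468% of all probes that fell and 1.04% that rose. Of 8 measured, 3 fell without P, with 0 rising, namely the RCc2 probes AK062911 (log2 -1.84, SE 0.16, limma adjusted p = 0.0018) and AK063090 (log2 -0.86, SE 0.16, limma adjusted p = 0.0446) and the RCc3 probe AK063684 (log2 -0.63, SE 0.13, limma adjusted p = 0.049). The other measured RCc2 and RCc3 probes did not pass and lay between -0.31 (AK062654) and 0.04 (AK062848), so probes with the same name differed. The mean log2 intensity of the 8 probes was 10.65 to 10.84 on the control arrays and 10.16 to 10.32 without P. AK063090 was also higher in 6-4 (0.59, SE 0.05, limma adjusted p = 0.0067). Of 16 measured leaf markers, 0 passed for P and 0 for line in the mean tests (limma), with 0 and 1 at an unadjusted p under 0.05, and their mean log2 intensity was 7.76 to 7.99 under control and 7.87 to 7.98 without P. The part of the change in root markers in the peroxidases' response was not tested.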

How the data were processed

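The files hold spot intensity values and log10 ratios, deposited as read with Agilent Feature Extraction 7.1 (replicates 1 and 2) or 8.1 (replicate 3), per the file headers. The deposited log10 ratios served as an alternative, converted to log2.

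Mean signals were corrected for local background with normexp (offset 50) and for dye with loess, in limma 3.58.1 (R 4.3.3). The line effect was fitted on log2 6-4 over Nipponbare with condition and dye terms, the mean response to P on mean log2 intensity after Aquantile, and the response within lines with lmscFit (intraspot correlation 0.792, leaving out 477 probes with outlier spots). P-values were adjusted by Benjamini-Hochberg over all probes tested, with a threshold of 0.05, and the code was tested on simulated data.

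Members and lists were chosen with earlier results of these data known. Probes to name were drawn from those past the threshold in any of the 7 comparisons, the 10 largest mean effects of each kind and the 5 brightest. Probes with a shared description and related genes that passed were drawn on too, and not every probe drawn is described. Probes that passed with the block or did not overlap were added after their values were seen. Levels of same-numbered arrays (numbers from the labels) correlated at 0.403, 0.318 and 0.662, so the responses to P are also given with a block where it matters. Across numbers, levels of replicates 1 and 2 correlated at 0.103 and 0.278, and those of replicate 3 with either at -0.534 to -0.302. Line ratios of same-numbered arrays, which hold opposite dye orders, correlated at -0.604, -0.751 and -0.371, with no dye effect removed. Across numbers, ratios correlated at 0.328 to 0.683 where the dye order was the same. Where it was opposite they correlated at -0.471 and -0.136, so the sign followed the dye order. The design text calls the replicates biological, and the number of arrays limits precision. The reference gene table matched 0 of the family's accessions, so positions and sequences are not given.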

Additional observations from a re-analysis of the deposited data

Results flagged for a closer look

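The line effect differed between P-deficient and control roots, by limma's test of the difference itself at an adjusted p under 0.05, for 14 peroxidase probes. The values, P-deficient minus control on the log2 scale, were above 0 for AK104936 (1.35), AK107203 (1.01), AK071111 (0.78), AK071908 (0.75), AK059661 (0.71), AK058883 (0.52) and AK109911 (0.50). They were below 0 for AK061040 (-1.29), AK069503 (-1.03), AK064619 (-0.96), AK061511 (-0.81), AK065305 (-0.77), AK066653 (-0.70) and AK108345 (-0.54). In 12 of them the arrays of replicate 2 were the farthest from 0 in both conditions, with opposite signs, and AK069503 and AK104936 were the exceptions.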

How the results depend on the processing

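None of the named calls changed sign in 568 alternative fits of called probes; 292 stayed past the threshold and 276 did not. Counts of called peroxidases are followed by the percentage of all probes called in the same fit. The mean line effect (2; 0.926%) gave 0 (0.0926%) in the deposited log ratios, 0 (0.195%) without the dye term, 9 (1.51%) with the replicate block and 0 to 11 (0.102% to 4.09%) when an array was left out. The control effect (12; 12.9%) gave 2 (3.43%) in the deposited log ratios, 0 (0.117%) without the dye term, 6 (6.62%) with the replicate block and 0 to 18 (0.00976% to 20.7%) without an array. The effect without P (12; 8.94%) gave 2 (0.901%) in the deposited log ratios, 0 (0.0633%) without the dye term and 0 to 25 (0.0292% to 21.8%) without an array. The difference between conditions (14; 19.7%) gave 6 (9.61%) in the deposited log ratios, 0 (0%) without the dye term and 0 to 22 (0% to 30%) without an array. The mean response to P (2; 1.51%) gave 7 (4.24%) with the replicate block, 7 (3.72%) with the software version as a term and 0 (0.0682%) on replicates 1 and 3 alone, a choice made after seeing the data. The response in Nipponbare (2; 0.868%) gave 1 (0.389%) with processed signals, 1 (0.309%) with median scaling, 16 (12.1%) with the replicate block, 7 (4.49%) with the version term, 0 (0%) on version 7.1 alone and 0 to 2 (0.12% to 0.45%) without an array. The response in 6-4 (3; 1.38%) gave 1 (0.838%) with processed signals, 15 (14.6%) with the replicate block, 7 (5.2%) with the version term, 0 (0.00979%) on version 7.1 alone and 1 to 2 (0.354% to 1.1%) without an array. The moves are not read as a trait of the family, and their causes were not tested, apart from the fewer arrays in some fits. The block result for the line effect is given here only, since ratios of same-numbered arrays correlated below 0. Those arrays hold opposite dye orders, so these correlations cannot tell whether the replicates pair. Probes dimmer than background in a channel and the 3 probes left out have the least certain values.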
